A study of Mus musculus with 7 samples.

Results

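The leukocytes other than macrophages were compared between 2 single-cell libraries of mouse hearts taken after a sham operation at an age given as P1, one from C57BL6/J mice (WT sham) and one labelled MerTK KO (KO sham). A leukocyte was a barcode with at least 500 UMIs (unique molecular identifiers, 1 per captured transcript), at least 300 genes, at most 15% mitochondrial UMIs and at least 1 UMI of Ptprc, the gene of the pan-leukocyte antigen CD45. Barcodes with more than 2 UMIs of the complement genes C1qa, C1qb and C1qc together, which mark macrophages, were left out. The rule kept 618 of 1590 barcodes in WT sham (38.9%) and 1267 of 2611 in KO sham (48.5%), or 1885 of 4201 in both and of 40158 in all 7 libraries. T cells were then the members with at least 1 Cd3e UMI, B cells those with at least 2 Cd79a UMIs, neutrophils those with at least 1% of their UMIs from S100a8 and S100a9, in that order, and all others were pooled as other leukocytes.

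Across the series, infarcted (MI) and sham-operated hearts of C57BL6/J mice were sampled at P1 and 8 weeks, and those of mice labelled MerTK KO at P1. Hearts were digested, red cells lysed and dying cells removed by Annexin V. CD45+ cells were then enriched and put back with the others at 2 to 1, so the share of leukocytes in a library was set in part by hand. The labels give neither the number of hearts per library, nor the time after surgery, nor which part of Mertk was deleted. Besides the 2 sham libraries, values are given from 3 other P1 libraries, 2 of WT hearts after MI (replicates 1 and 2) and 1 of MerTK KO hearts after MI (KO MI). The 2 WT MI libraries were the only like-labelled pair and show how far such libraries can lie apart. Replicate 1 is small, with 194 members against 1721 in replicate 2. Its members were 19 neutrophils, 59 T cells, 46 B cells and 70 other leukocytes, so counting error is part of the spread of the pair.

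Macrophages clear dying cells, neutrophils among them, in part through Mertk, a surface kinase that recognises bound phosphatidylserine. Neutrophils are short-lived granulocytes that store antimicrobial proteins in granules made one after the other during maturation in the marrow. Their recruitment to injured or inflamed tissue is driven by chemokines such as Cxcl2, and mast cells, which sit in the heart wall and store proteases and histamine, are among the cells that can release such signals.

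With 1 library a side there was no spread between samples, so no test was made. Intervals are exact 95% limits for counting error (binomial for shares, Poisson for summed UMIs) and do not cover differences between animals or preparations. WT sham held 21019995 UMIs in 1893 barcodes and KO sham 29769711 UMIs in 2881, and the 2 libraries shared 2 barcodes, 1 of them a member. The libraries also differed in sex-linked genes. WT sham had 329 CPM (counts per 1000000 UMIs of the cells summed) of Xist and 78.2 CPM of the Y-linked Ddx3y, whereas KO sham had 729 CPM of Xist and no Ddx3y UMI, and the part of this in the values given here was not tested. Mertk itself (chromosome 2, 128698956 to 128802894, plus strand, GRCm38) had 10.3 CPM over the whole WT sham library and 12.8 CPM over KO sham. In the members alone it had 5 UMIs in WT sham (0.956 CPM) and 114 in KO sham (11.5 CPM). It had 2.34 and 3.27 CPM in the WT MI replicates and 17.9 CPM in KO MI. The tags come from the 3' end of the transcript, so they check nothing if the deleted part lies elsewhere, and KO stands for the label throughout.

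Neutrophils took a far larger share of the KO sham members, and lymphocytes a smaller one. Neutrophils were 44 of 618 members in WT sham (7.12%, interval 5.22 to 9.44) and 510 of 1267 in KO sham (40.3%, 37.5 to 43.0), a 5.65-fold higher share (log2 ratio 2.50, 1.99 to 3.04). B cells were 246 members in WT sham (39.8%, 35.9 to 43.8) and 103 in KO sham (8.13%, 6.68 to 9.77), a log2 ratio of −2.29. T cells were 184 (29.8%, 26.2 to 33.6) and 149 (11.8%, 10.0 to 13.7), a log2 ratio of −1.34. Other leukocytes were 144 (23.3%) and 505 (39.9%), a log2 ratio of 0.77 (0.47 to 1.09). With neutrophils left out of the denominator the lymphocytes were still the smaller part in KO sham. T cells were then 32.1% in WT sham and 19.7% in KO sham, B cells 42.9% and 13.6%, and other leukocytes 25.1% and 66.7%.

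The like-labelled WT MI libraries differed by a ratio of similar size. Neutrophils were 9.79% of the members in replicate 1 and 51.1% in replicate 2, a 5.22-fold ratio. T cells were 30.4% and 6.91%, B cells 23.7% and 6.91%, and other leukocytes 36.1% and 35.1%. In KO MI neutrophils were 71.9%, T cells 3.25%, B cells 1.05% and other leukocytes 23.8%. The share of neutrophils in KO sham thus lay within the range of the WT MI libraries, and that of other leukocytes just above it. With every barcode thinned to 1500 UMIs before the classes were called, other leukocytes were 41.2% in WT sham and 46.5% in KO sham (log2 ratio 0.18). Cells that lost their Cd3e or Cd79a UMIs by thinning could then count as other leukocytes. T cells were 15.9% and 6.99% after thinning, so the smaller ratio does not compare the same cells at equal depth.

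**Figure D1:**
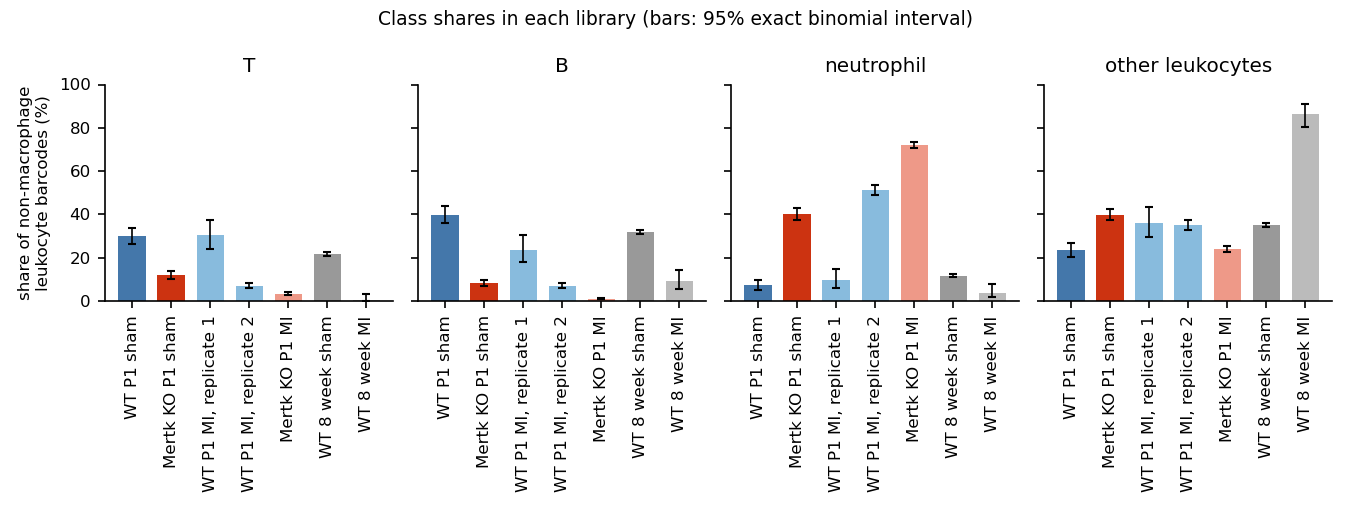
Share of each class among the leukocytes other than macrophages (%, y axis) in each of the 7 libraries (x axis), with bars for the exact 95% binomial interval. Neutrophils are 7.12% in WT sham and 40.3% in KO sham, and 9.79% and 51.1% in the WT MI replicates.

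Each class held the genes that define it beyond those used to sort it. The neutrophils had 14558 CPM of Retnlg and 772 CPM of the receptor Csf3r in WT sham and 10691 and 364 CPM in KO sham. The T cells had 1628 and 1360 CPM of the receptor chain gene Trbc2, and the B cells 4630 and 3639 CPM of the immunoglobulin gene Ighm. Some members lay near the limits of the rule. In WT sham 2 neutrophils had 1 to 2% of their UMIs from S100a8 and S100a9 and 2 barcodes just missed the limit at 0.5 to 1%, and in KO sham these were 41 and 39. T cells called from a single Cd3e UMI were 38 in WT sham and 25 in KO sham. Members with exactly 1 Ptprc UMI were 105 and 163, and 722 and 1129 kept barcodes with at most 2 UMIs of the C1q genes had none.

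In the neutrophils, 1534 genes had at least 30 UMIs and 50 CPM in the higher library, the minimum used in every class. Of these 190 (12.4%) were at least 2-fold higher in KO sham and 148 (9.65%) at least 2-fold lower, or 22.0% apart in all, against 33.2% between the WT MI replicates. The WT side rests on 44 barcodes and 196795 UMIs, and the KO side on 3454506 UMIs. Where a gene passed through the higher library alone, the minimum itself favoured a difference. In this shallow class a gene could also miss the minimum in WT sham by its UMIs alone. Cebpe and Runx1, for example, passed through KO sham alone and were within 2-fold. List counts are therefore given for members that passed in both libraries, and the others by their values. In the neutrophils 839 genes passed in both, of which 20 (2.38%) were higher and 136 (16.2%) lower. Because WT sham is shallow here, 30 UMIs ask for a far higher CPM there than the 50 CPM that suffices in KO sham. A gene low in KO sham could thus pass where one equally low in WT sham could not, so this set leans towards lower genes by its rule. Its median log2 ratio was −0.32, against 0.16 over all 1534 genes. The split between higher and lower also turned on the scaling. With TMM scaling, which lines up the bulk of the genes, 320 were higher and 74 lower, and the median log2 ratio of all genes was 0.47 in place of 0.16. Without the top barcode of each gene in each library 374 were higher and 82 lower.

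Saa3, Wfdc17 and Nos2 were among the genes furthest apart in the neutrophils, all higher in KO sham. Saa3, an acute-phase serum amyloid, had no UMI in the 44 WT neutrophils and 25537 UMIs in 189 of the 510 KO neutrophils (37.1%), 7392 CPM, which is at least 485-fold higher against a floor of 3 counts in WT sham. It had no UMI in WT MI replicate 1, 1457 CPM in replicate 2 and 7236 CPM in KO MI, so 2 of the 3 WT libraries were at 0 and the third was below both KO libraries. Free RNA can put UMIs in any droplet, and in KO sham 3 of 149 T cells (2.01%) and 8 of 103 B cells (7.77%) had a Saa3 UMI, at a median of 6718 and 4311 UMIs per cell against 5832 in neutrophils. The part of free RNA in the Saa3 values was not tested. Wfdc17, a small secreted protein of the whey acidic protein family, had 188 CPM in WT sham, 6473 in KO sham, 188 and 2881 in the WT MI replicates and 5937 in KO MI (log2 ratio of the sham libraries 5.09, 4.64 to 5.61). A single barcode gave 59.5% of its WT sham UMIs, and without the top barcodes the log2 ratio was 6.34. Nos2, the inducible nitric oxide synthase, had no UMI in WT sham and 448 in KO sham (130 CPM, at least 8.51-fold higher). Ifitm1, an interferon-inducible membrane protein picked out after its values were seen, had 503 and 7089 CPM (3.81, 3.53 to 4.12).

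Saa3 was not high in leukocytes alone. In barcodes with no Ptprc UMI and at least 5 UMIs of the collagen genes Col1a1, Col1a2 and Col3a1, 376 in WT sham and 754 in KO sham, it had 0.275 and 445 CPM, the haemoglobin scavenger gene Hp 0.275 and 889 CPM, and Lcn2, whose product binds bacterial iron carriers, 0.825 and 140 CPM. The part of these cells, or of RNA from them, in the values of the leukocytes was not tested.

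The granule genes did not move as a block. Granule proteins are made in order, primary granules first, then secondary and then gelatinase granules. Of the 12 secondary granule genes listed, 9 passed in both libraries, 3 of them at least 2-fold higher in KO sham (Lcn2, Cd177 and Hp) and 1 lower (Lyz2). Lcn2 had 2937 CPM in WT sham, 12064 in KO sham, 3847 and 4905 in the WT MI replicates and 7610 in KO MI (log2 ratio of the sham libraries 2.04, 1.92 to 2.16, and 2.69 without the top barcodes), so both KO libraries were above the 3 WT libraries. Chil3, a chitinase-like protein, had 137 and 1998 CPM in the sham libraries, 1342 and 299 CPM in the WT MI replicates and 59.6 CPM in KO MI, so the KO library was the higher after sham surgery and the lower after MI. The classical secondary granule genes Ngp, Camp and Ltf had 5498, 3074 and 1590 CPM in WT sham and 9551, 2677 and 1756 CPM in KO sham, all within 2-fold. In WT sham 1 barcode gave 56.0% of the Ngp UMIs and only 8 of 44 neutrophils had any, against 250 of 510 in KO sham. Without the top barcodes the log2 ratios of Ngp, Camp and Ltf were 1.92, 0.89 and 1.25 in place of 0.80, −0.20 and 0.14. Lysozyme, Lyz2, had 9868 and 4750 CPM (−1.06, −1.12 to −0.99). Of 6 gelatinase granule and secretory vesicle genes that passed in both libraries none was 2-fold apart, and the gelatinase gene Mmp9 had 1342 and 733 CPM. Of 6 primary granule genes only the protease gene Prtn3 passed, through KO sham alone, with 1 UMI in WT sham and 203 in KO sham (2.95, 1.04 to 8.84).

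Inflammatory cytokine genes were high in KO sham for some members and low for others. Of 16 genes of cytokines and NF-kB targets 8 passed in both libraries, of which 2 were at least 2-fold higher in KO sham (Cxcl2 and Ier3) and 2 lower (Ptgs2 and Zfp36). A further 7 passed through KO sham alone (Tnf, Cxcl3, Ccl3, Ccl4, Icam1, Il1a and Sod2), all at least 2-fold higher, a count that the minimum sets in part. Cxcl2, the chemokine that draws in further neutrophils, had 2536 CPM in WT sham, 5445 in KO sham, 1862 and 6533 in the WT MI replicates and 15868 in KO MI (log2 ratio of the sham libraries 1.10, 0.97 to 1.23). Ccl3 had 76.2, 567, 30.1, 359 and 1042 CPM in the same order (2.85, 2.17 to 3.73), and Ccl4 30.5, 305, 3.77, 501 and 1080 CPM. KO sham lay above both WT MI replicates for Ccl3 and between them for Cxcl2 and Ccl4. Tnf had 4 UMIs in 3 WT neutrophils and 634 UMIs in 206 KO neutrophils, 20.3 and 184 CPM (3.01, 1.81 to 5.05). Il1b, the gene of the cytokine interleukin 1 beta, had 3156 and 3779 CPM, within 2-fold. Zfp36, whose product degrades cytokine mRNAs, had 528 and 93.5 CPM (−2.50, −2.82 to −2.17), and Ptgs2, the inducible prostaglandin synthase, 213 and 53.6 CPM.

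**Figure D2:**
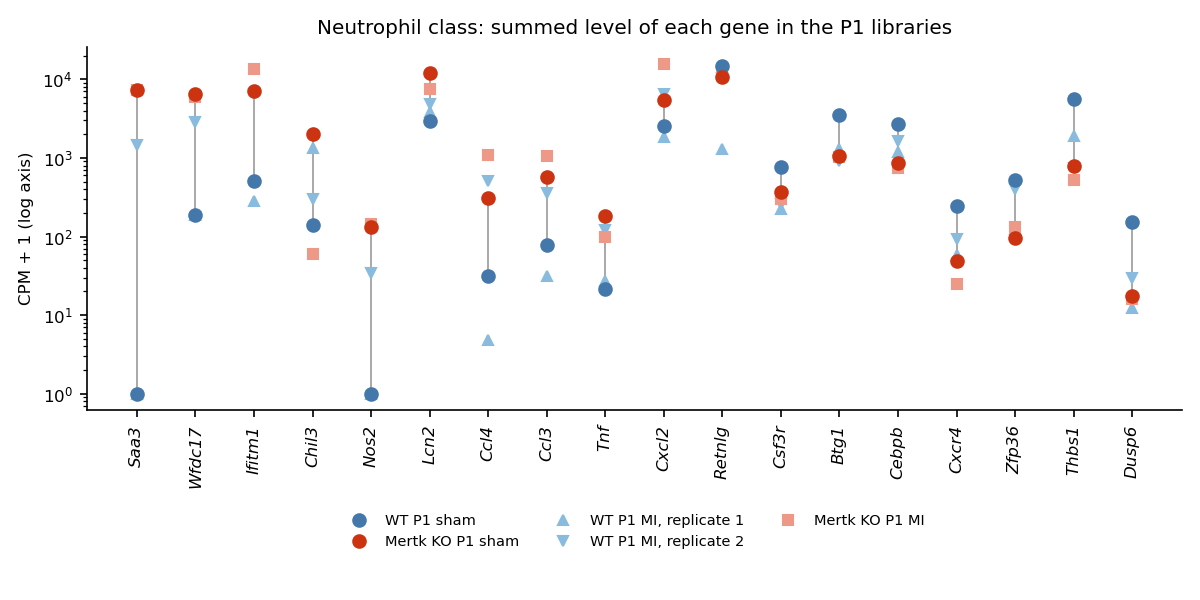
Summed level of 18 genes in the neutrophils (CPM plus 1, log axis), 1 point per P1 library, with a line joining WT sham and KO sham. Saa3 runs from no UMI to 7392 CPM and Thbs1 from 5686 to 793 CPM, and Retnlg from 14558 to 10691 CPM.

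Thbs1, Cebpb and Cxcr4 were lower in the neutrophils of KO sham, as were some genes of mature neutrophils. Thbs1, the matrix glycoprotein thrombospondin, had 5686 CPM in WT sham, 793 in KO sham, 1880 and 749 in the WT MI replicates and 525 in KO MI (log2 ratio of the sham libraries −2.84, −2.94 to −2.74). WT sham was the highest of the 5 libraries. The transcription factor gene Cebpb had 2683, 857, 1195, 1650 and 741 CPM in the same order (−1.65, −1.78 to −1.51), so both KO libraries were below the 3 WT libraries, and the other 4 of 5 neutrophil transcription factor genes that passed in both libraries were within 2-fold. Cxcr4, the receptor that holds neutrophils in the marrow, had 244 and 48.3 CPM (−2.35, −2.81 to −1.84), with 56.5 and 92.9 in the WT MI replicates and 23.8 in KO MI. Of 17 mature neutrophil genes 5 were at least 2-fold lower (among them Csf3r, Ccl6, Btg1 and Csf1) and 1 higher (Fth1), with a median of −0.56. The median was −0.32 over the 839 genes that passed in both, a set that leans low by its rule, and 0.16 over all 1534. With TMM scaling only 1 of the 17 was lower and without the top barcodes 2. Of 10 immediate early and heat shock genes that passed in both libraries 3 were lower (Fos, Dusp1 and Nr4a1) and none higher. The 5 Stefin A genes, protease inhibitors of mouse neutrophils, were all within 2-fold, led by Stfa1 with 28055 and 18417 CPM. Of 8 glycolysis genes that passed in both 2 were higher (Gapdh and Ldha) and 1 lower (Slc2a3). Fibroblast genes had 71.1 CPM in the WT neutrophils and 860 CPM in the KO neutrophils, summed over the list of 8, and 52% of the Dcn UMIs came from 1 barcode. The part of this background in the other genes was not tested.

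Because Saa3, Lcn2 and cytokine genes carry the account of the neutrophils, the bases before the start of 4 of them are shown, each 250 bases upstream of a RefSeq start on GRCm38.p6. Saa3 (chr7:46715677-46715926, minus strand) and Lcn2 (chr2:32387740-32387989, minus strand) were searched on both strands for the C/EBP letters TTGCNNAA. Cxcl2 (chr5:90903649-90903898, plus strand) and Cxcl3 (chr5:90785851-90786100, plus strand) were searched for the NF-kB consensus, and capitals mark a match.
Saa3: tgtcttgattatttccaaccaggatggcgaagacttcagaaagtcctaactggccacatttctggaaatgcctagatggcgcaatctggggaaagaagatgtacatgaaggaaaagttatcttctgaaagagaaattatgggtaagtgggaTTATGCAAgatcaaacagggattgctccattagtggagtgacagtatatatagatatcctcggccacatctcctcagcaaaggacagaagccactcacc
Lcn2: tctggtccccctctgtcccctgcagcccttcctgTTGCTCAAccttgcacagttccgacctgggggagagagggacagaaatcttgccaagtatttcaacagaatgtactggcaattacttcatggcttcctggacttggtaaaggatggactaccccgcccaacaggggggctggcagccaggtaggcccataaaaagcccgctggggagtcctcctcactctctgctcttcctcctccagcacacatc
Cxcl2: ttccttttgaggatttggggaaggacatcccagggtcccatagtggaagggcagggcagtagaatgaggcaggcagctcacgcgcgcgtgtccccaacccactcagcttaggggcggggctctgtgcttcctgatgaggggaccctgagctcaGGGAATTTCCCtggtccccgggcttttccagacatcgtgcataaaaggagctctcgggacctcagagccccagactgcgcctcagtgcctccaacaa
Cxcl3: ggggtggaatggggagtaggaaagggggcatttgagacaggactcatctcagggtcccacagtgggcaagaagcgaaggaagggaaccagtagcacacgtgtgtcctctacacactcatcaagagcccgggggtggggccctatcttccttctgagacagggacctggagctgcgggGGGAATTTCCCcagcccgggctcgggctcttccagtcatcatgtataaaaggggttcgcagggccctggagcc
The matches begin 99, 216, 97 and 73 bases before the start. C/EBP letters stood in 9.56% of all 32851 promoters in the table and the NF-kB consensus in 3.90%. Of the 14 genes of the cytokine list that the table holds, 6 had the NF-kB consensus in a promoter (Cxcl2, Cxcl3, Ier3, Nfkbia, Sod2 and Tnfaip3) and 1 the C/EBP letters. Of 9 secondary granule genes none had the first and 3 the second (Lcn2, Ltf and Ngp). These are letters in a window, counted per gene in the lists and per promoter in the table, and say nothing of binding.

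Mast cell and basophil genes were nearly missing from the other leukocytes of KO sham. In this class 3434 genes passed the minimum, 231 (6.73%) were at least 2-fold higher in KO sham and 246 (7.16%) at least 2-fold lower, or 13.9% apart against 22.8% between the WT MI replicates. Of 10 mast cell genes 9 passed, all through WT sham alone, so their direction follows from the minimum and the levels are given instead. Cma1, a mast cell chymase, had 4180 UMIs in 10 WT cells (2710 CPM) and none in KO sham, at least 3897-fold lower against a floor of 3 counts. It had 4969 and 1653 CPM in the WT MI replicates and 0.423 CPM in KO MI. The tryptase gene Tpsb2 had 1295 CPM and no UMI (at least 1863-fold lower). Mcpt4, another chymase, had 1802 CPM in WT sham and 1 UMI in KO sham (−12.34, −18.23 to −10.45), and the carboxypeptidase gene Cpa3 had 1199 CPM and 2 UMIs (−11.01, −14.38 to −9.48). Hdc, which makes histamine, had 335 and 46.1 CPM, and Kit, the receptor mast cells need to survive, 77.1 and 10.2 CPM. Neither Hdc nor Kit belongs to mast cells alone. In this class every WT P1 library was high in the proteases and both KO libraries were at or near 0.

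Counts of cells over all classes also set KO sham low, but less so KO MI. Among all kept barcodes, 28 of 1590 in WT sham (1.76%) had at least 3 UMIs of Cpa3, Mcpt4, Cma1 and Tpsb2, against 1 of 2611 in KO sham (0.0383%). They were 11 of 773 (1.42%) and 72 of 10135 (0.710%) in the WT MI replicates and 11 of 6607 (0.166%) in KO MI. Among the other leukocytes 14 of 144 were mast-like in WT sham and 0 of 505 in KO sham, which by a floor of 3 counts allows a share of up to 0.594%. WT 8 week sham had 244 of 15312 (1.59%) and WT 8 week MI 0 of 3130, so the library with none carried a WT label. All kept barcodes of WT 8 week sham held only 3554 UMIs of these genes, against 18126 in WT sham. Of its other leukocytes only 4 of 2838 were mast-like, so the 2 shares do not compare barcodes of like level. WT 8 week MI had a median of 2152 UMIs per kept barcode, against 9311 in WT sham, and the part of depth in its 0 was not tested. Barcodes with at least 2 UMIs of the basophil proteases Mcpt8 and Prss34 were 16 in WT sham (1.01%), 2 in KO sham (0.0766%), 7 (0.906%) and 43 (0.424%) in the WT MI replicates and 17 in KO MI (0.257%). WT 8 week sham had 6 (0.0392%), a lower share than KO sham, and WT 8 week MI none. Prss34 had 178 CPM in the other leukocytes of WT sham and no UMI in KO sham, and Il4, the cytokine basophils and type 2 lymphocytes release, 66.8 CPM and no UMI. In WT sham 4 barcodes held all Prss34 UMIs and 1 of them 64%.

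**Figure D3:**
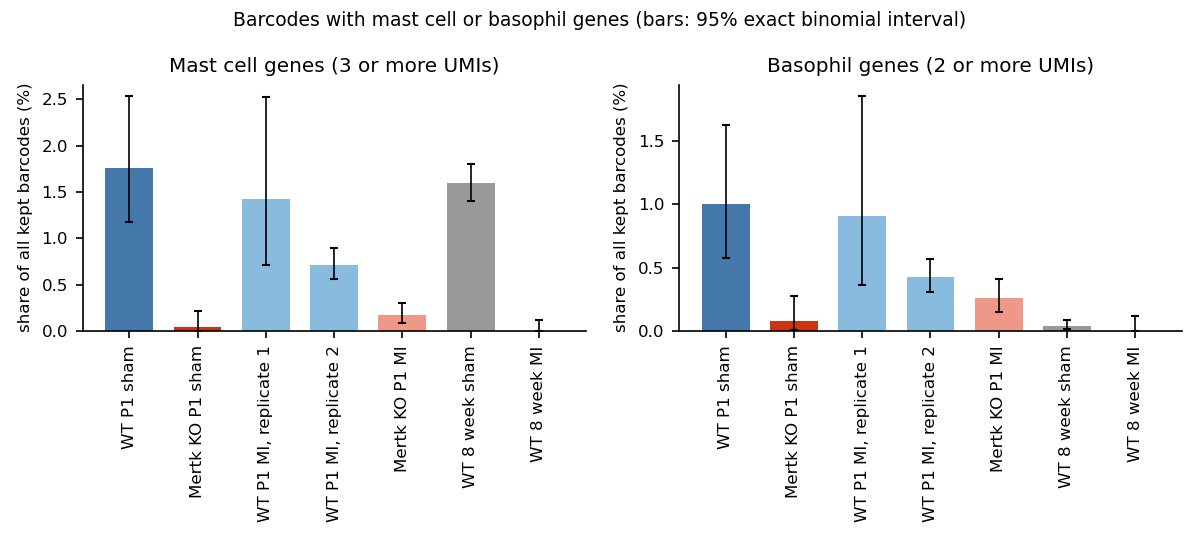
Share of all kept barcodes (%, y axis) with mast cell genes (left) or basophil genes (right) in each of the 7 libraries (x axis), with bars for the exact 95% binomial interval. Mast cell genes mark 1.76% of barcodes in WT sham and 0.0383% in KO sham, and WT 8 week MI has none.

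Monocyte-like cells, those with at least 2 UMIs of Ly6c2, Ccr2, Csf1r and Ace and no sign of the types before them, took a larger share of the other leukocytes in KO sham. They were 51 of 144 in WT sham (35.4%, 27.6 to 43.8) and 267 of 505 in KO sham (52.9%, 48.4 to 57.3), or 26.4% and 42.3% of those thinned to 1500 UMIs. Thinning left out 4 and 27 shallower cells. Of 12 classical monocyte genes 10 passed in both libraries of the summed class, whose makeup sets these levels in part. Of the 10, 4 were at least 2-fold higher in KO sham (Vcan, F13a1, Hp and Csf1r) and none lower, where 3.66% and 2.76% of all 2539 such genes were. Hp is also a neutrophil granule gene, and 8 neutrophil genes summed to 315 CPM in this class in WT sham and 1465 in KO sham, whose part was not tested. Of 3 non-classical monocyte genes that passed in both 1 was higher (Pglyrp1). The growth factor receptor gene Csf1r had 147 CPM in WT sham, 351 in KO sham, 131 and 214 in the WT MI replicates and 338 in KO MI, so both KO libraries were above the 3 WT libraries. Natural killer-like cells, with at least 2 UMIs of the receptor genes Ncr1, Klrb1c and Klre1, were 27 of 144 (18.8%) and 43 of 505 (8.51%), yet 7.86% and 5.86% after thinning. Conventional dendritic-like cells were 6.25% and 7.52%, and type 2 innate lymphoid-like cells 11.8% and 9.11%, both with overlapping intervals. The name of the last group may not hold for all its barcodes. The classical monocyte genes Lyz2 and F13a1 had UMIs in 8 and 6 of 46 in KO sham, and 1 and 0 of 17 in WT sham. The T cell receptor gene Cd3g had UMIs in 9 of 17 in WT sham and 4 of 46 in KO sham.

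In a mixed class, fewer cells of a type and less RNA per cell cannot be told apart in a summed level. Of 4 innate lymphoid type 2 genes that passed in both libraries 1 was at least 2-fold lower in KO sham (Areg). Il1rl1, the receptor for the alarmin interleukin 33, had 135 and 27.8 CPM in the sham libraries, 442 and 38.4 in the WT MI replicates and 1.83 in KO MI. Mast cells carry it too. Areg, the growth factor amphiregulin, had 624, 128, 1721, 169 and 276 CPM in WT sham, KO sham, the WT MI replicates and KO MI (log2 ratio of the sham libraries −2.29, −2.44 to −2.14), and the WT MI replicates lay further apart than the sham libraries. Of 3 natural killer genes that passed in both 2 were lower (Nkg7 and Klrd1). The class leaves out only cells with Cd3e. With T cells called from at least 2 UMIs of Cd3d, Cd3e and Cd3g, other leukocytes were 18.9% in WT sham, against 23.3%. In KO sham they were 39.7%, against 39.9%. The part of T cells without a Cd3e UMI in these genes was not tested. Endothelial genes were lower in KO sham, 4 of 4 that passed in both and 4350 against 1052 CPM summed over the list of 8, and their part in the other genes was not tested.

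Saa3 and other acute-phase genes were also higher in the other leukocytes of KO sham. Saa3 had 3 UMIs in 1 WT cell and 9034 UMIs in 61 of 505 KO cells, 1.94 and 2094 CPM (9.85, 8.52 to 12.35), with 1.31 and 889 CPM in the WT MI replicates and 9116 CPM in KO MI. In KO sham 6129 of these UMIs lay in 5 of the 46 barcodes called type 2 innate lymphoid-like, and 2695 in 45 of the 267 monocyte-like cells. Lrg1, another acute-phase glycoprotein, had no UMI and 330 (76.5 CPM, at least 39.3-fold higher). Il1rn, the natural blocker of the interleukin 1 receptor, had 1 and 469 UMIs (6.81, 4.90 to 12.70), and Hp 151 and 1009 CPM (2.74, 2.55 to 2.94). Il1b itself had 760 and 2810 CPM (1.89, 1.80 to 1.97), with 857 and 1819 in the WT MI replicates and 4169 in KO MI. Of 4 interferon response genes that passed in both libraries 2 were at least 2-fold higher (Ifi27l2a and Ifitm3) and none lower.

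**Figure D4:**
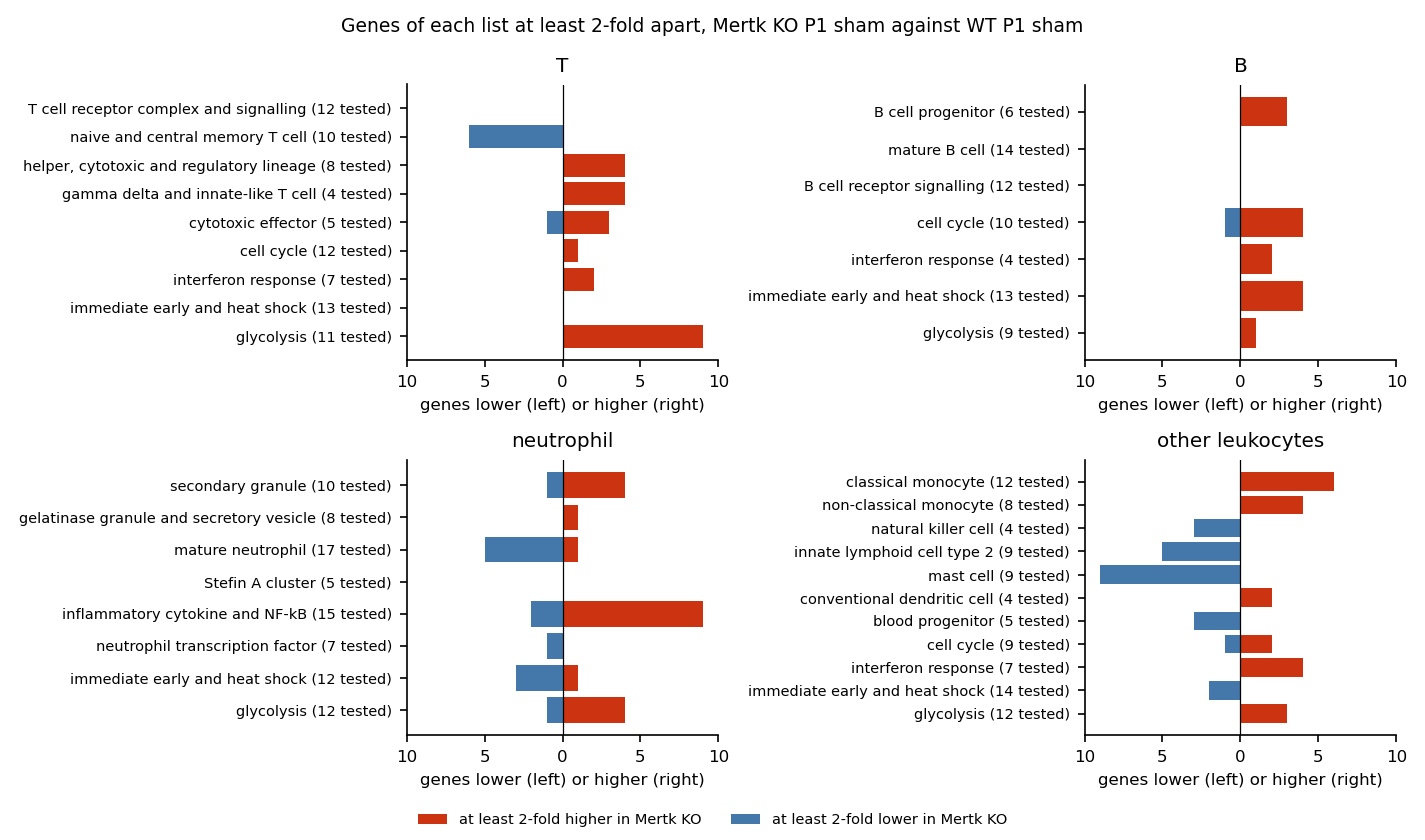
Number of genes of each list at least 2-fold lower (left of 0) or higher (right of 0) in KO sham than in WT sham, per class, with the number tested beside each name, counting genes past the minimum in either library. Genes that passed in 1 library only are included, as are all 9 mast cell genes and 7 of the 9 higher cytokine genes.

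In the T cells the receptor genes were within 2-fold, while some genes of T cell states and subsets were not. This class too is a mix of subsets, whose makeup sets the summed levels in part. In the T class 3151 genes passed the minimum, 297 (9.43%) were at least 2-fold higher in KO sham and 117 (3.71%) at least 2-fold lower, or 13.1% apart against 30.7% between the WT MI replicates. Of the 2293 that passed in both libraries 3.88% were higher and 1.35% lower. All 12 genes of the T cell receptor complex and its signalling were within 2-fold, such as Cd3d with 826 and 752 CPM. Of 10 genes of naive and central memory T cells, which circulate through lymph nodes, 9 passed in both libraries and 5 of these were at least 2-fold lower (among them Tcf7, S1pr1, Satb1 and Foxp1). Tcf7, a transcription factor of naive cells, had 823 UMIs in WT sham and 223 in KO sham, 463 and 162 CPM (−1.51, −1.73 to −1.30), with 295 and 133 CPM in the WT MI replicates and 70.3 in KO MI. Ccr7, a chemokine receptor that guides naive cells into lymph nodes, had 561 and 384 CPM. WT sham was the highest of the 5 libraries for Tcf7, but KO sham lay between the WT MI replicates. As a mean over cells, where each cell weighs the same, 2 of the 10 were at least 2-fold lower.

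Of 16 genes of gamma delta and innate-like T cells 4 passed, all through KO sham alone, so their values are given with no count. Trdc, the constant part of the delta chain, had UMIs in 6 of 184 WT T cells and 34 of 149 KO T cells, 23.6 and 271 CPM (3.51, 3.06 to 4.02), with 882 and 287 in the WT MI replicates and 678 in KO MI. WT sham was thus the low library of the 5. Cd163l1, a scavenger receptor found on such cells, had 6.74 and 125 CPM, the gamma chain gene Tcrg-C1 15.7 and 86.6 CPM, and the cytokine receptor gene Il18r1 25.9 and 108 CPM. Of 6 lineage genes that passed in both libraries 2 were higher (Ctla4 and Runx3), and Foxp3 and Il2ra passed through KO sham alone. Foxp3, which defines regulatory T cells, had UMIs in 12 and 18 T cells, 15.7 and 67.7 CPM (2.09, 1.48 to 2.77), and Il2ra, their interleukin 2 receptor, 16.9 and 173 CPM. Of 5 cytotoxic genes 3 were higher (Gzma, Gzmb and Nkg7) and Klrd1 lower. Gzmb, the protease granzyme B, had 51.7 and 494 CPM (3.25, 2.94 to 3.59), while 67% of the Gzma UMIs of KO sham came from 1 barcode. Tnfrsf9, Cxcr6 and Ly6a, genes of activated or tissue-resident T cells named after their values were seen, had 6.18, 6.18 and 24.2 CPM in WT sham and 157, 125 and 490 CPM in KO sham.

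Of 10 glycolysis genes that passed in both libraries of the T class 8 were at least 2-fold higher in KO sham and none lower. Gapdh had 1011 CPM in WT sham, 2848 in KO sham, 1011 and 1770 in the WT MI replicates and 4276 in KO MI (log2 ratio of the sham libraries 1.49, 1.41 to 1.58), so both KO libraries were above the 3 WT libraries. Neutrophil genes had 297 CPM in the WT T cells and 4030 CPM in the KO T cells, summed over the list of 8, and their part was not tested. The single largest and smallest ratios of the class came from few barcodes. Of the 8 largest, Dmkn, Krt8, Krt19, Timp1, Igfbp6 and Chil3 had between 94% and 100% of their KO UMIs in 1 barcode. Of the 8 smallest, the mast cell genes Cma1, Mcpt4, Tpsb2 and Cpa3 had between 98% and 100% of their WT UMIs in 1 barcode.

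**Figure D5:**
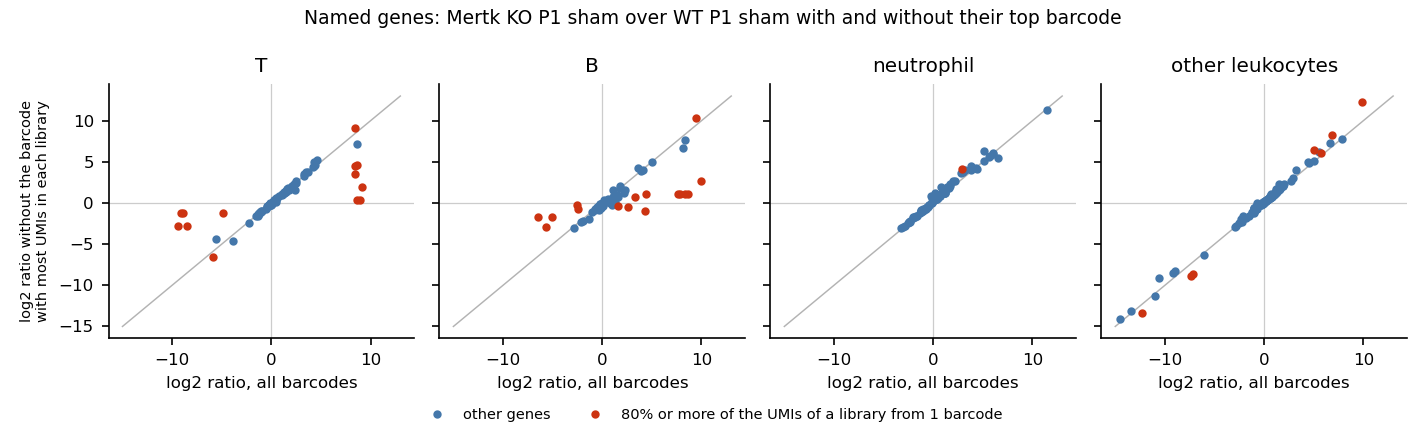
Log2 ratio of each named gene, KO sham over WT sham, from all barcodes (x axis) and without the barcode with most UMIs of that gene in each library (y axis), per class, with a line of equality. Red points, with 80% or more of a library's UMIs from 1 barcode, leave the line in the T and B classes most often, as Cma1 does in T cells and Cav1 in B cells.

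The B cells had none of their mature or receptor genes 2-fold apart. In the B class 3247 genes passed the minimum, 349 (10.7%) were at least 2-fold higher in KO sham and 60 (1.85%) at least 2-fold lower, or 12.6% apart against 21.7% between the WT MI replicates. Of the 2372 that passed in both libraries 2.19% were higher and 0.717% lower. None of the 14 mature B cell genes and none of the 12 B cell receptor signalling genes was 2-fold apart, with medians of −0.48 and −0.17 against 0.07 over all genes. Cd74, the chain that guides antigen presentation, had 9925 CPM in WT sham and 7238 in KO sham, the class II gene H2-Aa 1995 and 1222, and Ebf1, a B lineage transcription factor, 1300 and 875. Single barcodes set much of the rest. Without the top barcode of each gene 109 genes were at least 2-fold higher and 129 lower, so the excess of higher genes was lost, and with TMM scaling 317 were higher and 94 lower at a median of −0.05. Of the 8 largest ratios, Cav1, Apln, Ecscr, Afap1l1 and Gpihbp1, all endothelial genes, had between 99.6% and 100% of their KO UMIs in 1 barcode.

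The B cell progenitor genes Vpreb1, Sox4 and Cd93 passed through KO sham alone, where 1 barcode gave 63.5%, 60.3% and 84.6% of their UMIs. Without the top barcodes all 3 fell below the minimum, at a log2 ratio of 1.02 for Sox4 and 0.69 for Cd93. Vpreb1, the surrogate light chain of pre-B cells, had no UMI in WT sham and 63 in 3 KO barcodes (80.2 CPM), with 109 and 9.56 CPM in the WT MI replicates and none in KO MI. Of 5 cell cycle genes that passed in both libraries 1 was higher (Stmn1), and 1 barcode gave 80% of its KO UMIs. Mki67, Birc5 and Ube2c passed through KO sham alone. Without the top barcodes the log2 ratio was −0.31 for Stmn1, 0.71 for Mki67, 1.21 for Birc5 and 1.55 for Ube2c. Neutrophil genes had 408 CPM in the WT B cells and 10934 CPM in the KO B cells, summed over the list of 8, and endothelial genes 149 and 2877 CPM. Their part in the ratios was not tested. Of the 8 smallest ratios, the fibroblast-associated genes Cxcl1, Mfap5, Dcn, Fstl1 and Col3a1 had between 80% and 97% of their WT UMIs in 1 barcode. The other 3 were spread over many cells. Eif3j1, a subunit of a translation initiation factor, had UMIs in 123 of 246 WT and 11 of 103 KO B cells (−2.80, −3.71 to −2.10), the small nucleolar host gene Snhg8 in 152 and 22 (−2.15, −2.81 to −1.60), and the succinate dehydrogenase gene Sdhd in 71 and 9 (−1.98, −3.16 to −1.10).

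The remaining lists were scored in every class. Of the immediate early and heat shock genes, which digestion of a tissue can switch on, 2 of 11 that passed in both libraries were at least 2-fold higher in B cells (Fos and Jun), none of 13 was 2-fold apart in T cells, and in the other leukocytes 1 of 13 was lower (Jun). Of the glycolysis genes 3 of 11 were higher in the other leukocytes and 1 of 9 in B cells (Pkm). Of the class I antigen presentation genes 1 of 9 was 2-fold apart in T cells (Psmb8), 1 of 7 in B cells (H2-T23) and none of 7 in the other leukocytes. Of the receptors and bridging proteins for phosphatidylserine, the surface signal of dying cells, 14 were listed and between 1 and 5 passed per class. Itgav in T cells, Mfge8 and Cd300lf in B cells and Cd300lf in the other leukocytes were at least 2-fold higher, each having passed through KO sham alone. Cd300a, an inhibitory receptor, was lower in neutrophils, with 330 and 88.6 CPM in WT sham and KO sham (−1.91, −2.29 to −1.49). Alox5ap, which feeds leukotriene synthesis, had 1225 CPM in the neutrophils of WT sham, 2685 in KO sham, 531 and 1537 in the WT MI replicates and 1687 in KO MI.

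A handful of genes stood apart the same way in every class in which they were tested. Of 1151 genes tested in all 4 classes 8 were at least 2-fold higher and 3 at least 2-fold lower in KO sham in each. The 8 were Cxcl2, Hp, Ifitm2, Ifitm6, Lcn2, Saa3, Wfdc17 and the sex-linked Xist, and the 3 were AY036118, Gm42418 and Lars2. AY036118 and Gm42418, which overlap ribosomal RNA, made up 0.971% of member UMIs in WT sham and 0.347% in KO sham. The part of sex, ribosomal RNA and free neutrophil RNA in these genes was not tested. Of 2513 genes tested in at least 3 classes 20 were higher and 10 lower in each class tested. Eif3j1, Eif3j2, Snhg8, Snrpf and Tcp11l2, named after their values were seen, were tested in 3 classes only. In neutrophils Snrpf and Tcp11l2 were within 2-fold (log2 ratios of −0.99 and −0.65). Over all members Eif3j1 had 116 CPM in WT sham and 17.3 in KO sham. In the WT MI replicates it had 113 and 66.2 CPM, and in KO MI 12.8. Its near-identical copy Eif3j2 went the other way, with 3.06, 56.2, 1.40, 2.44 and 33.4 CPM, and reads of the pair could have been split between the copies, so both are uncertain. Both KO libraries also lay below every WT library, the 8 week ones included, for Snhg8 (155 and 31.6 CPM in the sham libraries), the splicing factor gene Snrpf (247 and 72.3) and Tcp11l2 (125 and 37.9). Eif3j1 had 126 CPM in the stromal barcodes of WT sham and 24.7 in those of KO sham. It lies on chromosome 2, 6.67 Mb from Mertk (GRCm38). Of 94 genes within 2 Mb of Mertk 12 passed the minimum over all members, where 2 were at least 2-fold higher in KO sham (Il1b and Sirpa) and none lower, against 11.9% and 8.26% of all 3257 genes tested over the members. These sums follow the share of neutrophils, within which Il1b was within 2-fold.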

How the data were processed

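UMI counts per gene and barcode were deposited by the authors as filtered matrices, made with Cell Ranger 4.0.0 in 5 libraries and 6.1.0 in the other 2 (the second WT P1 MI library and the WT sham library of 8 weeks), per the file headers. The submitters' processing notes give GRCm38 as the build. The libraries compared were both made with 4.0.0. Members, gene lists and thresholds were chosen with earlier results of these data known. Barcodes meeting several class rules, 22 in WT sham and 9 in KO sham, took the first in the order T, B, neutrophil. Counts were summed per class and library, scaled to CPM, and compared as log2 ratios with 0.5 counts added, for genes with at least 30 UMIs and 50 CPM in the higher library. The script was tested on simulated counts.

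Genes were named by rule: the 8 largest and 8 smallest ratios per class, the 4 most abundant members of each list and any member at least 2-fold apart, genes within 2 Mb of Mertk, and no mitochondrial, ribosomal, haemoglobin, sex-linked, receptor segment or serial-number genes. Others are said to be chosen after their values were seen, namely Ifitm1, Ltf, Tnfrsf9, Cxcr6, Ly6a and the genes compared across classes or within the other leukocytes. Doublets stayed in, since Scrublet in scanpy 1.11.5 called 7 and 25 barcodes, and removing the 20 and 55 top scores was an alternative. Other alternatives changed the filters, scaling (TMM, edgeR 4.0.16) and added counts. Leaving out top barcodes or stromal transcripts was added after seeing the data, as was counting list members that pass the minimum in both libraries. A member of the lists is not reported here.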

Additional observations from a re-analysis of the deposited data

Results flagged for a closer look

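Some values went one way between the sham libraries and the other way between KO MI and both WT MI replicates. Each is a log2 ratio, KO over WT, and the difference was not tested. The share of other leukocytes had a ratio of 0.77 after sham surgery, and −0.60 and −0.56 after MI against replicates 1 and 2.

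In T cells the ratio of Gzma, a granule protease of killer cells, was 2.40 after sham surgery and −1.74 and −3.05 after MI, and 1 barcode held 67% of its KO sham UMIs. In neutrophils Chil3 had 3.84 against −4.49 and −2.33, and Prtn3 2.95 against −6.05 and −1.12. WT MI replicate 1 had 5709 CPM of Prtn3 in its neutrophils and WT sham a single UMI.

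In B cells the progenitor gene Sox4 had 1.51 after sham surgery, against −1.53 and −1.12. Vpreb1 had no UMI in WT sham or KO MI, so its fitted values of 8.11, −5.92 and −2.46 depend on the 0.5 counts added and are no measure of size. Against a floor of 3 counts it was at least 45.7-fold higher in KO sham. The imprinted fetal growth genes H19 and Igf2 had 4.38 and 4.36, against −3.03 and −2.59 and then −2.83 and −1.64. A single barcode gave 92.3% of the H19 and 98.6% of the Igf2 UMIs of KO sham, and without the top barcodes they had 1.12 and −0.99. The cycling genes Stmn1 and Mki67 had 1.60 and 1.59, against −2.20 and −1.97 and then −1.89 and −1.09, and Bst2, an interferon-induced membrane protein, had 1.27 against −2.53 and −1.83. For Stmn1, Mki67 and Bst2 1 barcode gave 80%, 67.1% and 72.2% of the KO sham UMIs. In the other leukocytes H19 had 1.76 against −1.47 and −3.34.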

How the results depend on the processing

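Of 52 recomputed class share ratios 51 moved by less than their counting interval, and the share of other leukocytes thinned to 1500 UMIs moved to 0.18. With a minimum of 10 UMIs in place of 30, the genes at least 2-fold apart were 1878 in T cells, 1666 in B cells, 1757 in neutrophils and 2239 in other leukocytes. With 100 UMIs they were 164 in B cells and 223 in neutrophils. In B cells they were 240 without barcodes with stromal or endothelial transcripts and 238 without top barcodes. The other 36 of 44 such counts stayed within 1.5 times. Of 2025 recomputed ratios of named genes at least 2-fold apart 11 changed sign, 10 of them of genes past the minimum, and so did 101 of 1503 within 2-fold. These leave out the changed UMI minimum, which cannot alter a ratio. Without barcodes meeting several rules Iglc2 in T cells had 0.22. Without stromal or endothelial transcripts Cxcl12 in T cells had 0.31, Igf2 and Fstl1 in B cells −0.22 and 0.23, and Tcf4 in other leukocytes 1.34. As a mean over cells Bst2 in B cells had −0.11 and Tcf4 0.16. Without top barcodes Igf2, Mfge8 and Stmn1 in B cells had −0.99, −0.46 and −0.31. The cause was not tested. No paired analysis was possible because each side is 1 library and no test was made. WT sham has 44 neutrophils, which limits the precision of every ratio in that class.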

Other observations

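Within the other leukocytes, genes picked after their values were seen differed inside the natural killer-like and monocyte-like cells. Cd3g, a chain of the T cell receptor complex that immature killer cells can carry, had 61 UMIs in 16 of 27 natural killer-like cells of WT sham (324 CPM) and none in 43 cells of KO sham. It was found in 4 of 6 and 24 of 38 such cells of the WT MI replicates and in 2 of 37 of KO MI. Klre1 took part in choosing these cells, and Cd3g and Klrd1 did not. Klrd1, a subunit of an inhibitory receptor of killer cells, had 1046 CPM in WT sham, 395 in KO sham, 667 and 896 in the WT MI replicates and 345 in KO MI. Granzyme A, Gzma, had 4880 and 4368 CPM in the sham libraries, but with UMIs in 22 of 27 and 21 of 43 cells. The part of a different makeup of the natural killer-like cells in these values was not tested.

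In the monocyte-like cells Saa3 had 4.95 CPM in WT sham, 1093 in KO sham, 4.94 and 1064 in the WT MI replicates and 9864 in KO MI. Neutrophil genes were also higher in these cells in KO sham, with 4.95 and 293 CPM of Lcn2, 21.5 and 426 of Chil3 and 0 and 251 of Mmp9, and their part was not tested. A single barcode gave 73.2% of the KO sham UMIs of Mmp9, which lay in 12 of 267 cells, 25.3% of those of Lcn2 and 21.5% of those of Chil3. Il18, an inflammasome cytokine, had 6.60 and 110 CPM in the sham libraries, 29.6 and 42.1 in the WT MI replicates and 129 in KO MI. Nxpe4 had UMIs in 21 of 51 monocyte-like cells of WT sham (56.1 CPM) and in 3 of 267 of KO sham (1.22 CPM), with 29.6 and 30.0 CPM in the WT MI replicates and 0.37 CPM in KO MI. For Il18 both KO libraries were above, and for Nxpe4 both below, the 3 WT libraries. These were chosen among 1441 genes in the first group, 173 of them at least 2-fold apart, and 3548 in the second, 530 of them at least 2-fold apart.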
